A study of Mus musculus with 90 samples.

Results

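Among 41 vehicle-treated mouse livers, the 13 animals with the highest and the 13 with the lowest level of Sqle were set against each other, 26 animals of the 90 in the series. Sqle encodes squalene epoxidase, which adds an oxygen to squalene and so opens the sterol part of cholesterol synthesis. All animals were female Diversity Outbred (J:DO) mice, bred from a mix of founder strains so that no pair of animals is genetically alike, aged 6 to 20 weeks. The high Sqle, the low Sqle and the 15 middle livers had all received sterile distilled water (a zileuton dose of 0 mg/kg) by mouth daily for 7 days, and no treatment separates them. The remaining 49 animals received zileuton, an inhibitor of 5-lipoxygenase, at 300 mg/kg on the same schedule, and are used here as animals that took no part in the choice.

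Cholesterol is made in the liver from acetyl-CoA through mevalonate, farnesyl diphosphate, squalene and lanosterol. The enzymes of this route are known to be switched on together by the transcription factor SREBP2, which is held in the endoplasmic reticulum by INSIG proteins when sterols are plentiful and cleaved and released when they fall. SREBP2 is also known to drive genes of cholesterol uptake, so that synthesis and uptake are regulated in parallel.

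The animals were chosen by their Sqle level, as given in the authors' normalized table. It ran from 3218.46 to 6678.1 with a median of 3740.43 in the high Sqle livers, and from 864.411 to 2259.09 with a median of 1848.87 in the low Sqle livers. The last animal inside the high group stood at 3218.46 and the first outside it at 3184.03; at the other end, the last animal inside the low group stood at 2259.09 and the first outside it at 2320.93. These values chose the animals and are given as a description; Sqle is left out of all results that follow. The p-values below therefore ask whether another gene goes with Sqle from animal to animal, and Sqle and the other genes were read in the same libraries.

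Total estimated counts ran from 13533835 to 38967793 (median 28656563) in the high Sqle livers and from 13127481 to 32134981 (median 24304093) in the low Sqle livers. The two-sided permutation test gave p = 0.535 for the difference in log2 total. It gave p = 0.923, also by permutation, for the position of an animal within its run of 50 consecutive animal numbers. Coats were agouti in 8, black in 4 and white in 1 of the high Sqle animals, and agouti in 11, black in 0 and white in 2 of the low Sqle animals. The runs were made here by cutting the animal numbers into blocks of 50. The labels name no run and do not say what such a block stands for. Of 8 runs of animal numbers, 6 held animals of both groups. Run 1 held 2 high and 4 low Sqle animals, and runs 2 and 7 held 2 and 1 high and 0 low Sqle animals. All 4 hepatocyte markers were measured in every liver, and their summed level was 74766 to 140864 CPM (counts scaled to library size) in the high Sqle livers and 86098 to 156467 CPM in the low Sqle livers. A circadian clock score was the mean scaled log2 CPM of 11 genes of the phase opposite to Bmal1, minus that of 5 Bmal1-phase genes. Its median was -0.77 (-2.83 to 2.60) in high and -1.80 (-2.58 to 2.17) in low Sqle livers, a difference that was not tested. Of the 11 genes, 10 had a positive fold change (median log2 fold change 0.38), of the 5 genes 0 had, and none passed.

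The promoters of 4 cholesterol synthesis genes are shown as examples. These genes had higher medians in high Sqle livers, and their promoters differ in sequence, in which motifs they hold and in how many copies. Each is the RefSeq sequence on GRCm38.p6 of 250 bases before to 50 bases after the gene's start, on the strand of the gene. Capitals mark CCAAT or its reverse complement ATTGG (the core bound by the factor NF-Y) and TCACNCCAC, a form of the sterol regulatory element bound by SREBP, both searched on both strands with no overlap between them here. Lss, which closes the sterol rings, lies at chr10:76531355-76531654 on the plus strand; Mvd, mevalonate diphosphate decarboxylase, at chr8:122443373-122443672 on the minus strand; Mvk, mevalonate kinase, at chr5:114444019-114444318 on the plus strand; and Hmgcs1, HMG-CoA synthase, at chr13:119690101-119690400 on the plus strand.
Lss: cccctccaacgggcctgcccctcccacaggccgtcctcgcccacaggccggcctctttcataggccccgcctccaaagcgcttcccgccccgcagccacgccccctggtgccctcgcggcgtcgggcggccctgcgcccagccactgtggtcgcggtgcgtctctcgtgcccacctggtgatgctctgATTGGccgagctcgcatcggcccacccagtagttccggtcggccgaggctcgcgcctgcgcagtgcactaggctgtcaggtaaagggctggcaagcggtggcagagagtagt
Mvd: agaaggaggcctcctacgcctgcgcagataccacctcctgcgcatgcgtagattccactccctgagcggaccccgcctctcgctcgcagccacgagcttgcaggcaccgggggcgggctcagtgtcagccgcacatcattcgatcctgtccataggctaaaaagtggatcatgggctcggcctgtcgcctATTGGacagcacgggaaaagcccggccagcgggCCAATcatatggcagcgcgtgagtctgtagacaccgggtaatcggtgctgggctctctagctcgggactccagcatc
Mvk: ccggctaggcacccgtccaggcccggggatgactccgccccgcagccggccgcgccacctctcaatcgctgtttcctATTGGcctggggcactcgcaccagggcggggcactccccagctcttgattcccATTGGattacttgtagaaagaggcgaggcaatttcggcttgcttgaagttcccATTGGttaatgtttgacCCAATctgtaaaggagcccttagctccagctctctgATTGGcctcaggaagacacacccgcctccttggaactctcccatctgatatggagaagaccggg
Hmgcs1: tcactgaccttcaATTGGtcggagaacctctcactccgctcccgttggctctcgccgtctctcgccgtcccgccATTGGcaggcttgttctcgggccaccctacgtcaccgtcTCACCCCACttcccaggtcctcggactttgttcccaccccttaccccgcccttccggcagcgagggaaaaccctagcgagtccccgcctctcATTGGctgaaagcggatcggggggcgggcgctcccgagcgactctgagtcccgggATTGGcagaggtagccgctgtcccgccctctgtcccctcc
The Mvk window shares 259 bases with that of Mmab, which is read from the opposite strand and encodes an enzyme of cobalamin metabolism. Promoters were found for 16 of the 20 cholesterol synthesis genes. CCAAT was present in 14 of these 16 (87.5%), against 38.99% of the promoters of 10171 tested genes and 37.9% of all 27025 promoters. All 4 examples hold it, and the promoters of Acat2 and Dhcr7 do not. CCAAT was also present in 5 of 8 promoters of a mixed list of uptake and transfer genes, described below (62.5%). For fatty acid synthesis genes it was present in 9 of 15 (60.0%). TCACNCCAC was present in 1 of the 16 (6.25%), that of Hmgcs1, against 1.15% of the promoters of tested genes and 1.22% of all. A match describes the letters in this window and is not a binding site.

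High Sqle livers had higher levels of most enzymes of cholesterol synthesis, at every stage of the route, and the largest difference among them was 2.19-fold, for Mvd. Across 13010 tested genes, 20 passed an adjusted p under 0.05 in edgeR's quasi-likelihood test with Benjamini-Hochberg adjustment and are named called genes (0.154%); 18 were higher (0.138%) and 2 lower (0.0154%) in high Sqle livers. Of the 20 cholesterol synthesis genes, 12 rose, 0 fell and 8 did not pass, and all 20 had a positive log2 fold change and an unadjusted p under 0.05. Their median log2 fold change was 0.72 (1.65-fold), beside -0.0045 over all tested genes, of which 48.6% were positive and 593 had a positive change with an unadjusted p under 0.05. These genes share the cells and libraries they were read in, so they are not independent of each other.

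**Figure D1:**
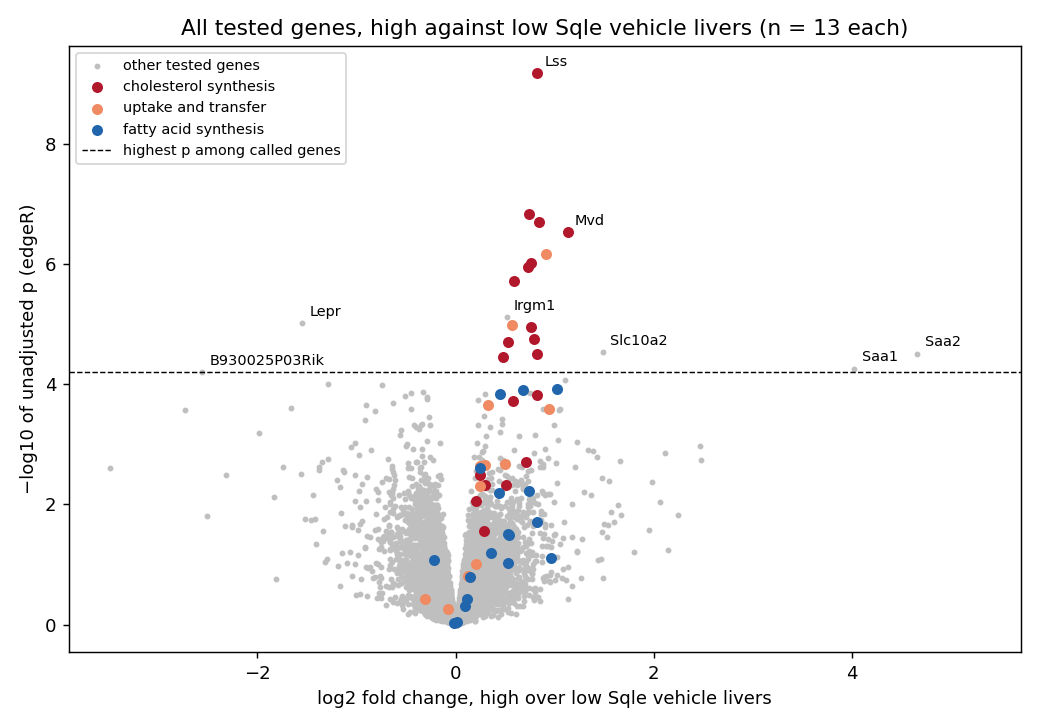
Log2 fold change of high over low Sqle vehicle livers (x axis) against the negative log10 of the unadjusted edgeR p (y axis) for 13010 genes, with cholesterol synthesis, uptake and transfer, and fatty acid synthesis genes in colour; the dashed line is at the highest p among the 20 called genes. Cholesterol synthesis genes lie to the right of 0, and Lss has the lowest p.

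At the first steps, which build mevalonate, both enzymes described here had positive fold changes, and 1 of them rose. Acat2, the thiolase that makes acetoacetyl-CoA, rose by a log2 fold change of 0.47 (SE 0.10, edgeR adjusted p = 0.0257). Hmgcs1 ran from 408 to 1575 CPM with a median of 671 in high Sqle livers, and from 242 to 736 CPM with a median of 423 in low Sqle livers. The groups overlapped broadly: 5 of 13 high Sqle animals lay above every low Sqle animal. Its log2 fold change of 0.71 (SE 0.21) did not pass (edgeR adjusted p = 0.233).

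From mevalonate to farnesyl diphosphate, 4 of 5 enzymes rose. Mvd ran from 37.1 to 87.7 CPM with a median of 51.7 in high Sqle livers, and from 12.7 to 39.6 CPM with a median of 23.7 in low Sqle livers. All but 1 of the high Sqle animals lay above every low Sqle animal. The log2 fold change of 1.13 (SE 0.17, edgeR adjusted p = 0.000967), a 2.19-fold difference, exceeded that of the other 19 genes of the pathway. Mvk rose by 0.59 (SE 0.10), with 11 of 13 high Sqle animals above every low Sqle animal. Idi1, isopentenyl diphosphate isomerase, rose by 0.83 (SE 0.17), and Fdps, farnesyl diphosphate synthase, by 0.84 (SE 0.12), which is 1.79-fold. Pmvk, phosphomevalonate kinase, had a log2 fold change of 0.58 (SE 0.13) and did not pass (edgeR adjusted p = 0.0686).

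Around squalene, the enzymes on either side of Sqle itself were both higher. Fdft1, squalene synthase, ran from 162 to 384 CPM with a median of 214 in high Sqle livers, and from 107 to 193 CPM with a median of 138 in low Sqle livers. The overlap was small, with 10 of 13 high Sqle animals above every low Sqle animal, and the log2 fold change was 0.73 (SE 0.12, edgeR adjusted p = 0.00205). Lss, which turns the product of Sqle into lanosterol, ran from 84.4 to 154 CPM with a median of 105 in high Sqle livers, and from 52.4 to 83.2 CPM with a median of 61.8 in low Sqle livers. The groups of 13 did not overlap; of 13010 tested genes, 1 was higher in all high Sqle livers than in any low Sqle liver (0.00769%), and it was Lss, while 0 were lower in this way. The log2 fold change of Lss was 0.82 (SE 0.09, edgeR adjusted p = 8.854e-06), or 1.77-fold. The highest Lss of all vehicle livers, 180 CPM, was in an animal of the middle group, replicate 30.

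Between lanosterol and cholesterol, the enzymes that remove methyl groups rose and those that move or reduce double bonds mostly did not pass. Cyp51, the lanosterol demethylase, rose by a log2 fold change of 0.79 (SE 0.15). Msmo1, the methylsterol oxidase, rose by 0.76 (SE 0.14), Nsdhl, a sterol dehydrogenase, by 0.76 (SE 0.12), and Hsd17b7, a sterone reductase, by 0.53 (SE 0.10). Dhcr7, the 7-dehydrocholesterol reductase of the last step, ran from 123 to 259 CPM with a median of 167 in high Sqle livers, and from 72.4 to 132 CPM with a median of 103 in low Sqle livers. For Dhcr7, 12 of 13 high Sqle animals lay above every low Sqle animal (log2 fold change 0.74, SE 0.11). Smaller log2 fold changes that did not pass were 0.20 for Ebp, the sterol isomerase, 0.25 for Lbr and 0.30 for Tm7sf2, both C14 reductases, and 0.51 for Sc5d, the sterol desaturase.

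**Figure D2:**
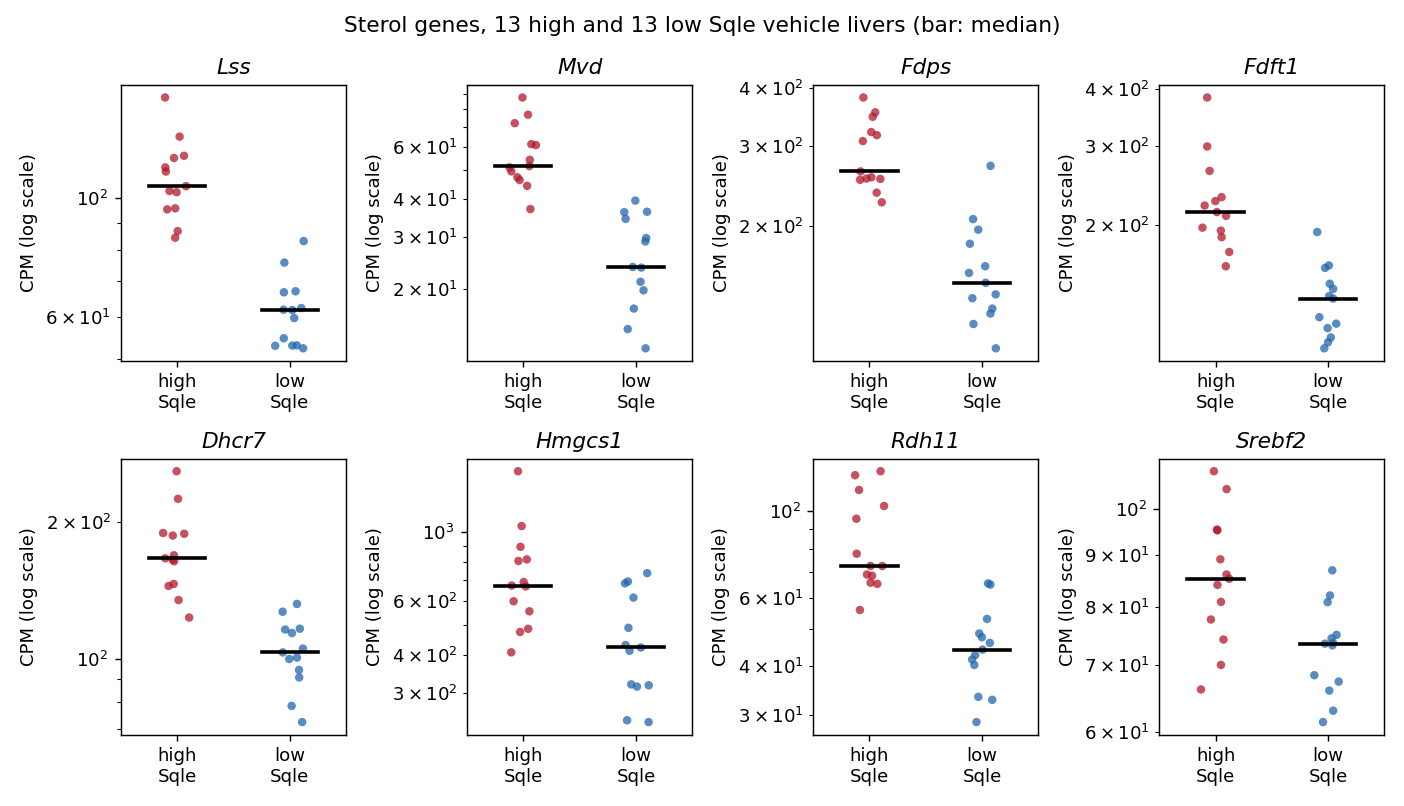
CPM on a log axis of 8 sterol genes in each of 13 high and 13 low Sqle vehicle livers; points are animals and bars are medians. The groups do not overlap for Lss, and 12 of 13 high Sqle livers lie above every low Sqle liver for Mvd, while Hmgcs1 and Srebf2 overlap broadly.

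Counting in each animal how many of the 20 genes stood above the median of the 41 vehicle livers showed how far the genes went together within an animal. The count was 7 to 19 with a median of 17 in high Sqle livers, and 0 to 6 with a median of 3 in low Sqle livers. In the 15 middle livers it was 1 to 19 with a median of 12. For 17 of the 20 genes (85.0%) the middle group's median lay between those of the other groups, against 36.3% of all tested genes. The middle group was set by its Sqle level, so a gene that goes with Sqle tends to lie between. The share therefore restates the difference between high and low Sqle livers. Single animals departed from the common direction: in the high Sqle group 2 of 13 had fewer than 10 of the 20 genes above the median, and 3 of 15 middle livers had at most 6.

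**Figure D3:**
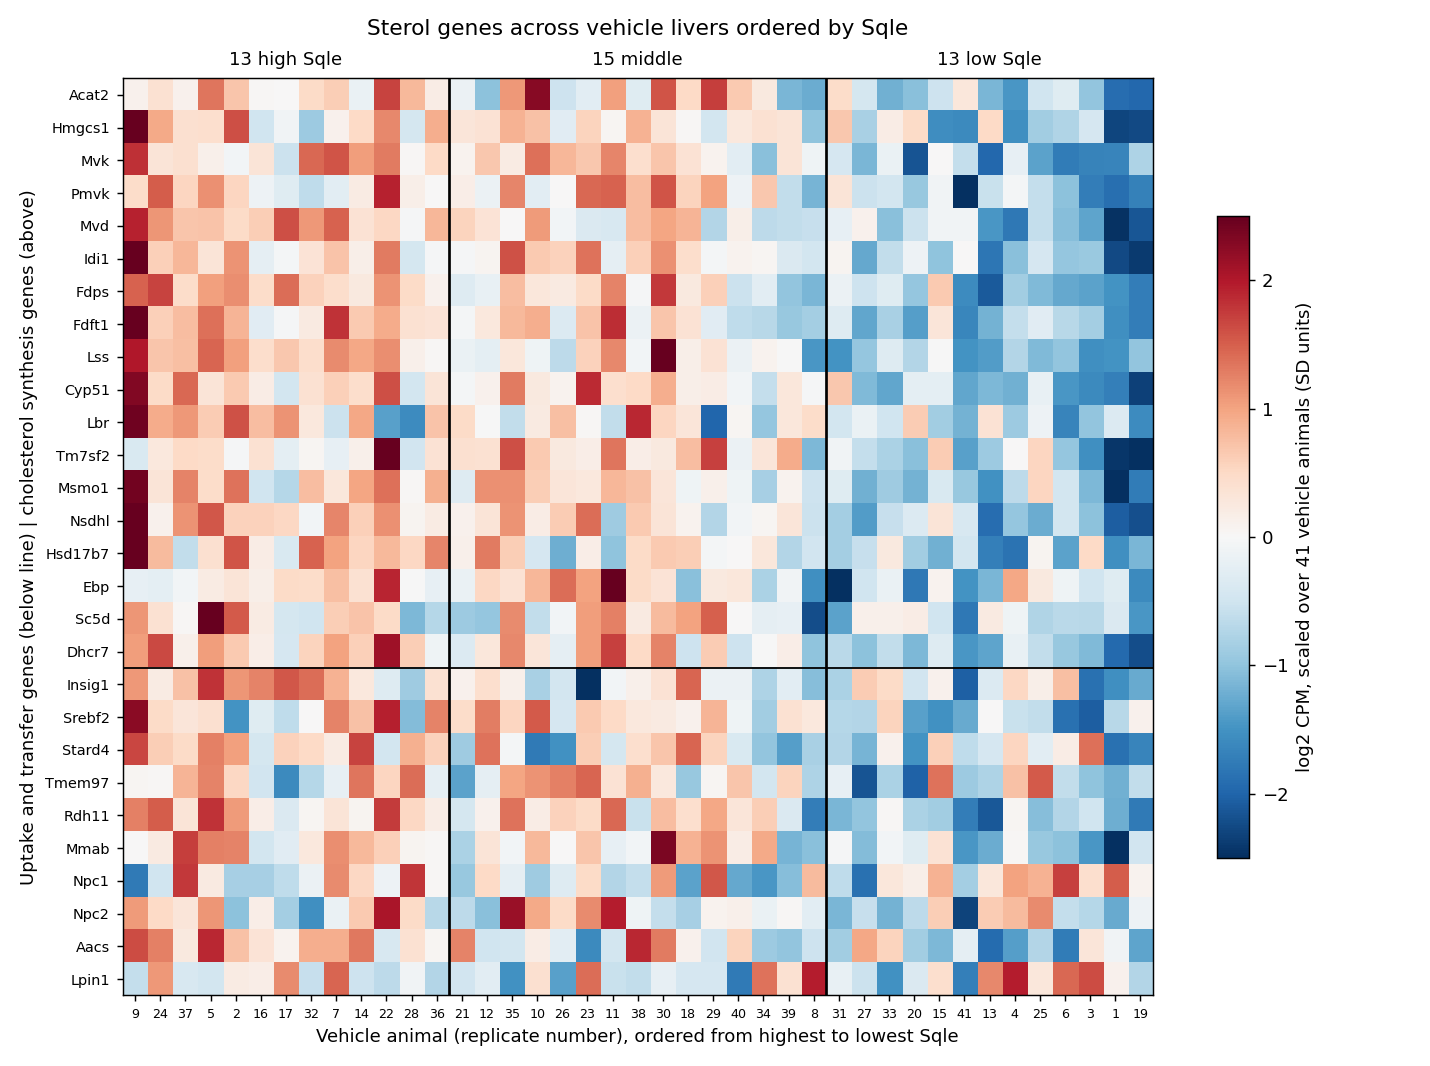
Scaled log2 CPM (SD units over 41 vehicle livers, colour) of 18 cholesterol synthesis genes and 10 uptake and transfer genes (rows) in each vehicle animal (columns), ordered by Sqle from the highest at the left to the lowest at the right, with lines between the 13 high, 15 middle and 13 low Sqle livers. Synthesis genes are mostly red at the left and blue at the right; Npc1 and Lpin1 show no such order.

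A list of 12 further SREBP2 targets, named uptake and transfer genes here and in the figures, holds genes of sterol uptake, transfer and regulation. It also holds genes with other roles, among them Rdh11 and Mmab. Of the 12, 2 rose, 0 fell and 10 did not pass, with a median log2 fold change of 0.27. Rdh11, a retinol dehydrogenase, ran from 55.8 to 127 CPM with a median of 72.4 in high Sqle livers, and from 28.8 to 65.3 CPM with a median of 44.2 in low Sqle livers. It rose by a log2 fold change of 0.91 (SE 0.14, edgeR adjusted p = 0.00178), with 11 of 13 high Sqle animals above every low Sqle animal. Mmab, whose promoter window overlaps that of Mvk, had 0.33 (SE 0.08, edgeR adjusted p = 0.0738), and Npc1, which exports cholesterol out of lysosomes, had -0.08 (SE 0.13).

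Of the transcripts of the pathway's own regulators, none passed between the vehicle groups. Srebf2, which encodes SREBP2, had a log2 fold change of 0.24 (SE 0.07, edgeR adjusted p = 0.243), and Insig1, itself an SREBP target, 0.50 (SE 0.15, edgeR adjusted p = 0.241). Over all 41 vehicle livers, which include these 26, the slope of Insig1 on log2 Sqle was 0.41 and passed (edgeR adjusted p = 0.0448). Srebf1, which encodes the SREBP1 proteins of fatty acid synthesis, had 0.13 (SE 0.16). Of 12 further genes of SREBP processing and sterol-dependent protein turnover, among them Scap and Insig2, 0 passed and the median log2 fold change was -0.01. Of 8 genes of the isoprenoid side branches, 0 passed, with a median of -0.02.

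Genes that remove cholesterol did not pass either. Of 15 genes of cholesterol export, lipoprotein transport and LXR control, 0 passed, with a median log2 fold change of -0.05; Abca1, the exporter of cholesterol to high-density lipoprotein, had 0.04 (SE 0.10). Of 12 bile acid genes 0 passed. Cyp7a1, the rate-limiting enzyme of bile acid synthesis, ran from 11.5 to 291 CPM in high Sqle livers and from 4.24 to 223 CPM in low Sqle livers, with a log2 fold change of 0.19 (SE 0.52) whose 95% interval was -0.84 to 1.21.

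Fatty acid synthesis genes mostly had positive fold changes, and none was called. Of 18, 0 passed in edgeR, 16 had a positive fold change, 9 had a positive change at an unadjusted p under 0.05, and the median was 0.44. Acss2 and Acly, which supply acetyl-CoA from acetate and from citrate to sterol and fatty acid synthesis, had log2 fold changes of 1.03 (SE 0.23) and 0.68 (SE 0.15), and both had an edgeR adjusted p of 0.0630. Fasn, fatty acid synthase, had 0.44 (SE 0.15), and Scd1, stearoyl-CoA desaturase, 0.53 (SE 0.31). Of 8 genes of fasting glucose production 0 passed, 7 were negative and the median was -0.32; of 17 PPARalpha targets of fatty acid oxidation 0 passed, with a median of -0.07.

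Outside the sterol lists, 4 genes rose and 2 fell. Saa1 and Saa2 encode serum amyloid A, acute phase proteins made by hepatocytes in inflammation; they are near-identical neighbours on chromosome 7, so the authors' counting could divide reads between them. Saa1 ran from 23.5 to 3658 CPM with a median of 64.7 in high Sqle livers, and from 11.4 to 77.8 CPM with a median of 18.7 in low Sqle livers. In 2 high Sqle animals Saa1 stood far above the rest, at 3658 CPM in replicate 9, which also has the highest Sqle, and 964 CPM in replicate 16. The log2 fold changes were 4.02 (SE 0.83, edgeR adjusted p = 0.0377) for Saa1 and 4.66 (SE 0.92, edgeR adjusted p = 0.0242) for Saa2. Without replicate 9 they were 2.45 (edgeR adjusted p = 0.100) and 3.11 (edgeR adjusted p = 0.0546), and neither passed. The other 11 of 13 acute phase genes did not pass; all 13 were positive, with a median of 0.49.

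Slc10a2, a sodium-dependent bile acid transporter best known from the ileum and bile ducts, ran from 25.0 to 82.8 CPM with a median of 43.97 in high Sqle livers, and from 4.31 to 38.6 CPM with a median of 15.6 in low Sqle livers. All 13 high Sqle animals exceeded the low Sqle median, and the log2 fold change was 1.49 (SE 0.29, edgeR adjusted p = 0.0242). The 4 bile duct cell markers had a summed level of 2.75 to 13.5 CPM (median 6.15) in high Sqle livers and 3.05 to 11.9 CPM (median 5.73) in low Sqle livers, and 0 of 4 passed. Irgm1, an interferon-inducible GTPase of cell defence, rose by 0.52 (SE 0.09, edgeR adjusted p = 0.0110). With coat colour as a term, neither Slc10a2 nor Irgm1 passed. Beside it, 0 of 12 interferon response genes passed, although all 12 were positive with a median of 0.48, and their summed level was 105 to 256 CPM (median 178) in high Sqle livers and 83.3 to 191 CPM (median 126) in low Sqle livers.

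Lepr, the leptin receptor, ran from 1.18 to 6.46 CPM with a median of 2.54 in high Sqle livers, and from 1.79 to 18.8 CPM with a median of 6.95 in low Sqle livers. It fell by 1.55 on the log2 scale (SE 0.28, edgeR adjusted p = 0.0121), and 0 of 13 high Sqle animals exceeded the low Sqle median. B930025P03Rik, annotated as a lincRNA in GENCODE M21, fell by 2.56 (SE 0.54, edgeR adjusted p = 0.0413) at levels of 0 to 1.54 CPM in high Sqle livers and 0.213 to 6.37 CPM in low Sqle livers. Of the 26 fits that each left out 1 animal, it was tested in 21 and called in 7.

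**Figure D4:**
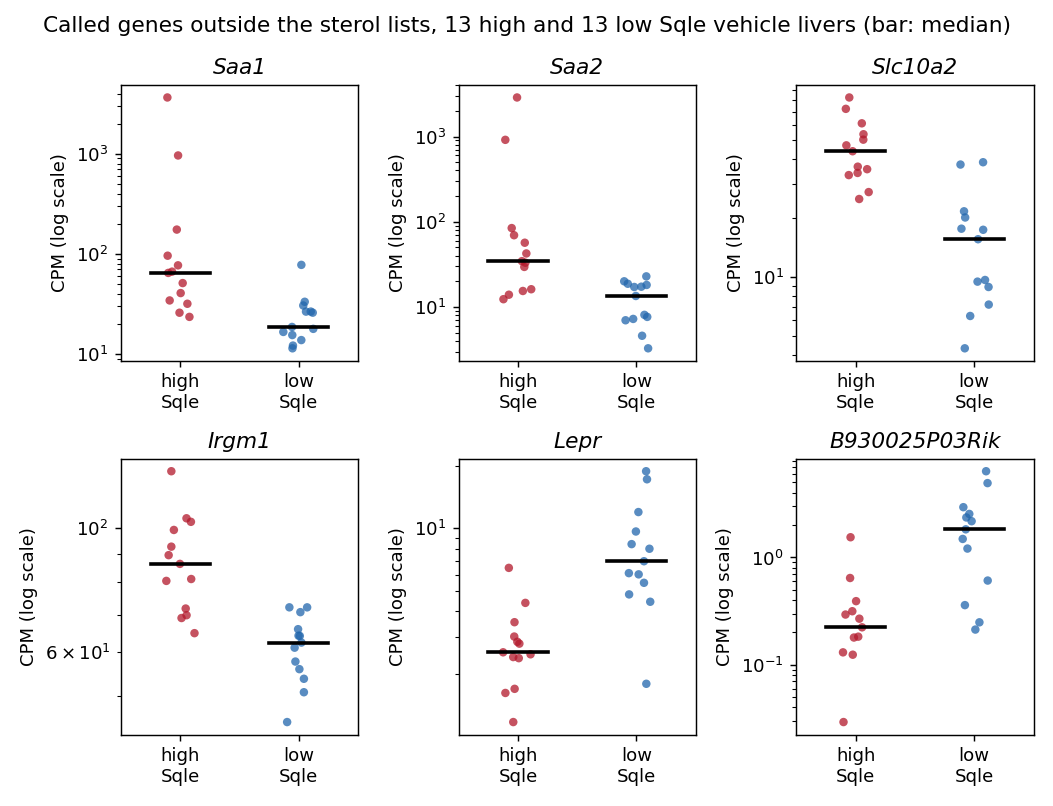
CPM on a log axis of the 6 called genes outside the sterol lists in each of 13 high and 13 low Sqle vehicle livers; points are animals and bars are medians, and 1 high Sqle animal at 0 for B930025P03Rik is not drawn. Saa1 and Saa2 reach 3658 and 2869 CPM in 1 high Sqle animal, and Lepr is lower in most high Sqle livers.

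No marker of another cell type passed, and among these lists the markers of Kupffer cells, the resident macrophages, had the highest median. The 6 Kupffer markers were all positive with a median log2 fold change of 0.59 and 0 passed; their summed level was 125 to 568 CPM (median 195) in high Sqle livers and 66.1 to 267 CPM (median 143) in low Sqle livers. In a bulk liver, fewer cells of a type and less RNA per cell cannot be told apart. The part of these markers in the acute phase and interferon values was not tested. Endothelial markers had a median of 0.10, stellate cell markers -0.05 and lymphocyte markers 0.27, with 0 genes called in each, and none of the 5 skeletal muscle markers was high enough to be tested. All 12 protein folding genes of the endoplasmic reticulum were positive, with a median of 0.41, and 0 passed.

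Within runs of animal numbers the direction held for most called genes, which had been called on these same animals. Such agreement was therefore largely built in, and no share over all tested genes is given beside it. Some runs were very small. Run 8 held 1 high and 1 low Sqle animal, and runs 4 and 6 each held 1 high and 2 low Sqle animals. In the 6 runs with both groups, the mean log2 CPM was higher in high Sqle livers in 6 of 6 runs for 15 of the 18 higher genes, and in 5 of 6 for Acat2, Hsd17b7 and Slc10a2. The difference for Lss was 0.59 to 1.07 within runs, with a median of 0.76, and for Mvd 0.49 to 1.43 with a median of 1.07. B930025P03Rik was lower in 6 of 6 runs and Lepr in 5 of 6. With run as a term in the model, 11 genes passed in all, 7 of them cholesterol synthesis genes, and 10 of the 20 called genes passed. Those that did not included Acat2, Idi1, Cyp51, Msmo1, Hsd17b7, Irgm1, Saa1, Saa2 and Lepr.

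The same question was put to the 49 zileuton livers, whose Sqle ran from 1513.31 to 7111.32 and which had no part in choosing the animals. There each gene was fitted against log2 Sqle, so that a slope of 1 means that the gene doubled when Sqle doubled. Of 13836 genes, 31 were called (0.224%), 29 with a positive slope (0.21%) and 2 with a negative slope (0.0145%). Of the 20 cholesterol synthesis genes, 18 had a called positive slope, with a median over the 20 of 0.62. Of the 12 genes on the mixed uptake and transfer list, 5 were called, among them Rdh11, Mmab, Srebf2 and Tmem97.

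The genes called in the vehicle comparison and in the zileuton livers overlapped in the sterol genes. The 14 genes called in both, among them the 12 synthesis genes and Rdh11, made up 70% of the vehicle calls and 45.2% of the zileuton calls. With the same slope model over the 41 vehicle livers, in which 61 of 13938 genes were called (0.438%), 21 genes were called by both slopes, 67.7% of the zileuton calls and 34.4% of the vehicle slope calls. Called slopes in zileuton livers were 0.80 for Lss (SE 0.09, edgeR adjusted p = 1.702e-08), 0.92 for Mvd (SE 0.10) and 0.68 for Fdps (SE 0.08). Hmgcs1 had a called slope of 0.90 (SE 0.11) in zileuton livers and a called slope of 0.69 (SE 0.10, edgeR adjusted p = 2.371e-05) over the 41 vehicle livers, although it missed the threshold between the vehicle groups of 13. Srebf2 had a called slope of 0.33 (SE 0.05). Further sterol-related calls, named after their values were seen, were Pmvk, Tm7sf2 and Acss2, which the vehicle slope called too, as it did Mmab, and Ebp, Sc5d and Erg28, the last known from yeast as a scaffold of sterol demethylation. The 2 genes with called negative slopes were Plekha8 (-0.36, SE 0.08), a lipid transfer protein gene, and Bglap3 (-3.05, SE 0.62), an osteocalcin-related gene with a median of 0.253 CPM. A single zileuton animal, replicate 25, held 577 CPM of Bglap3, which was 89.97% of the sum over the 49. Without that animal, left out after its value was seen, the slope of Bglap3 was 1.18 (edgeR adjusted p = 0.788) and that of Plekha8 -0.34 (edgeR adjusted p = 0.0600). In that fit 25 genes were called, all with positive slopes and all among the 31, and they included the same number of cholesterol synthesis genes, 18, and 13 of the 14 genes shared with the vehicle comparison; Tmem97, Tmem62 and Mup13 did not pass.

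**Figure D5:**
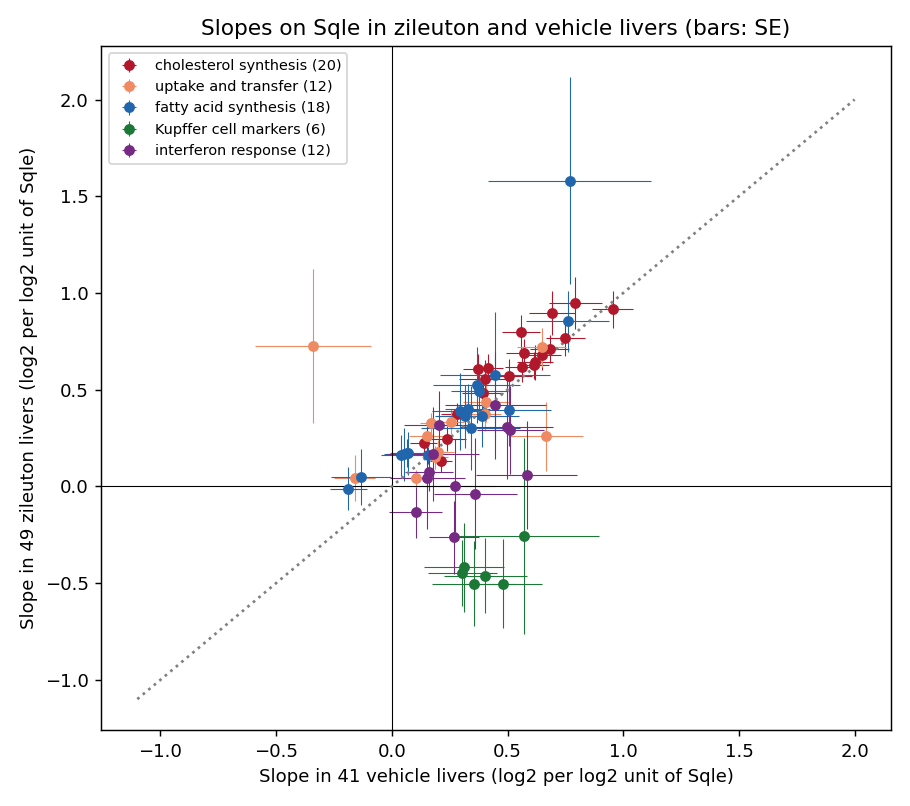
Slope of log2 expression per log2 unit of Sqle in 49 zileuton livers (y axis) against 41 vehicle livers (x axis) for genes of 5 lists; bars are standard errors, the dotted line marks equal slopes, and the 2 sets share no animals. Cholesterol synthesis genes have positive slopes on both axes, and the 6 Kupffer markers are positive in vehicle livers and negative in zileuton livers.

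The 6 called genes outside the sterol lists were not called in zileuton livers. The slopes there were -0.04 for Saa1, -0.04 for Saa2, -0.02 for Slc10a2, 0.12 for Irgm1, -0.92 for Lepr (SE 0.27, edgeR adjusted p = 0.247) and -0.17 for B930025P03Rik. The difference in slope between zileuton and vehicle livers was tested directly, and 0 of 14369 genes passed in edgeR (0%) and 0 in limma-voom, with 1135 genes at an unadjusted edgeR p under 0.05. For Lepr the slopes differed by 0.01, at -0.92 in zileuton and -0.93 in vehicle livers. For Slc10a2 the difference was -0.92 (edgeR adjusted p = 0.470) and for Saa1 -1.86 (edgeR adjusted p = 0.410). The median slope of the 6 Kupffer markers was -0.46 in zileuton livers, and 5 of the 6 slope differences had an unadjusted p under 0.05; none passed after adjustment.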

How the data were processed

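Liver RNA of 90 animals was sequenced on Illumina HiSeq from TruSeq libraries, per the labels' protocols, after RNA of low integrity had been excluded. The authors deposited an estimated count per gene and animal, and a second table with a signal that is each animal's rounded estimated count divided by 1 size factor, as the values show. Partek, STAR, DESeq2 and the build mm10 are named, per the submitters' processing notes; which tool counted reads, with what annotation and strand setting, is not given in the sources used here. No other build is named, and the effect of founder alleles on the counts of these outbred animals was not tested.

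Vehicle animals were ranked by the deposited Sqle signal and the top 13 set against the bottom 13. Estimated counts were rounded and tested with edgeR 4.0.16 (R 4.3.3; TMM, filterByExpr, robust quasi-likelihood F test, two-sided, adjusted p under 0.05), with Sqle removed. In zileuton animals, and in all vehicle animals, log2(Sqle + 1) was the covariate, and 1 model over all 90 gave the difference in slope. SE and intervals are on the log2 scale. CPM used TMM factors over all libraries. Each library is 1 animal, numbered in accession order, so p-values measure the spread between animals; the common biological coefficient of variation was 30.1%. Each p-value of technical measures used 100000 permutations (SciPy 1.17.1). No 2 of the 26 libraries were copies (smallest chi-square per gene 63.7). Of 18223 symbols, 97.9% matched 1 gene of GENCODE M21. The model was tested on simulated data.

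The animals and gene lists were chosen with earlier results of these data known. Genes named were called ones with mean CPM of at least 1: the 10 largest changes and 3 lowest p in each direction, the 2 largest called in each list or its most abundant member, and a set of pathway genes; Acat2, Mvk, Msmo1, Hsd17b7, Irgm1 and pathway members that did not pass were named after their values were seen. Some genes of the lists are not reported here. Alternatives covered scaling, the low-count filter, DESeq2 1.42.0, limma 3.58.1 on counts and on the deposited signal with pseudocounts of 1 and 0.5, covariates, ranking by CPM, and leaving out each animal.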

Additional observations from a re-analysis of the deposited data

How the results depend on the processing

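None of the 20 called genes changed sign in any alternative in which it was tested. Of 31 named genes that were not called, 11 took the other sign in at least 1 alternative, with log2 fold changes of at most 0.15 in size and no call; Cyp7a1 was -0.09 without vehicle replicate 14. Against 20 genes called, DESeq2 called 82 (51 higher and 31 lower, with all 20 among them), the run term left 11 genes and 7 of the 12 cholesterol synthesis genes, a score of circadian clock genes as a term gave 32, and the slope over all 41 vehicle livers gave 61, with 19 of the 20. Leaving out each animal gave 14 to 36 genes and 10 to 14 cholesterol synthesis genes; the count was 36 without vehicle replicate 15, and 32 without replicate 27 or without replicate 28. Without replicates 9, 15 and 37, a choice made after seeing the data, 20 genes passed, 15 of them among the 20, and 11 were cholesterol synthesis genes. Called in all 14 alternative settings were Lss, Mvd, Fdps, Fdft1, Mvk, Nsdhl, Dhcr7 and Rdh11. With coat colour as a term, genes that did not pass included Acat2, Idi1, Cyp51, Slc10a2, Irgm1 and B930025P03Rik. B930025P03Rik and Saa1 each failed in 8 of the 14 settings and Saa2 in 7. Without the low-count filter, 61 genes were called in zileuton livers and 20 in the difference of slopes, against 0 with it. The cause of these changes was not tested. Ranking by CPM chose the same 26 animals. No paired analysis was possible because the replicate numbers are in accession order and the groups hold different animals. Fold changes of low genes such as B930025P03Rik rest on few counts.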
